A study of Mus musculus with 8 samples.

Results

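The effect of a Bach2 vector on activated helper T cells that had not become follicular helper T cells (non-Tfh cells) was measured in 4 of the 8 RNA libraries of the series, 2 with the Bach2 vector and 2 with an empty vector. The libraries were chosen by their labels alone. The donor cells were mouse T cells of the Smarta line, which carry 1 transgenic receptor for the viral peptide GP61-80, crossed to mice with CreERT2, a Cre recombinase that tamoxifen switches on. They received, by retrovirus, either an inducible Bach2 vector or an empty control vector, and were moved into C57BL/6 hosts. The hosts were immunized under the skin with that peptide and nitrophenol on mouse serum albumin, tamoxifen was injected on day 5, and 18 hours later the donor cells were recovered from inguinal lymph nodes, which were pooled. All 4 libraries thus share the receptor, the recombinase and the immunization, and the labels give 1 protocol for both vectors. The sort took Thy-1.1+ CD44hi cells that lacked CXCR5 and PD-1. The other 4 libraries hold CXCR5+ PD-1+ Tfh cells with the same vectors, and served to estimate the spread between replicates and for 1 comparison of the vector effect. The sources used here give no ages, sexes or numbers of animals and do not say whether replicates came from separate animals, so a p-value measures only the spread between these libraries.

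Bach2 is a transcription factor of the bZIP class that represses genes. It pairs with small Maf proteins on DNA elements that overlap those used by AP-1 factors such as Jun and Batf, and is known for keeping T and B cells from effector differentiation. Activated T cells lower it as they gain cytokines, effector receptors and the factor Blimp-1.

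The 4 non-Tfh libraries held 8992816 to 9830284 counts, and the 8 libraries together 7862879 to 9889859. A count of 0 allows up to 3 counts, which is 0.303 to 0.382 CPM here. CPM, the unit of all levels below, is a count relative to the size of its library. These limits cover counting error only. Levels were scaled with TMM factors and are given as empty vector replicates 1 and 2, then Bach2 replicates 1 and 2. Fold changes are on the log2 scale. The standard error (SE) given with them was derived from the test, as the absolute fold change over the square root of its F statistic. It is approximate, above all at low counts. Adjusted p comes from the quasi-likelihood test of edgeR, adjusted over 11475 genes by the Benjamini-Hochberg method, with a threshold of 0.05. The sort was visible in RNA for CXCR5: Cxcr5 was 28.2 and 17.3, then 23.4 and 17.4 CPM in non-Tfh cells, against group means of 754 and 612 CPM in Tfh cells. Pdcd1, which encodes PD-1, was present in the PD-1-negative sort at 202 and 162, then 128 and 95.8 CPM, and group means in Tfh cells were 556 and 497 CPM. T cell markers were the bulk of the marker signal, with Cd4 at 1278 and 1076, then 1202 and 1216 CPM. The 10 B cell markers summed to 14.9 and 4.0, then 13.6 and 5.44 CPM, and 20 myeloid and dendritic markers to 89.6 and 56.8, then 96.8 and 48.8 CPM, so both sums were higher in the libraries numbered 1 under either vector. Of 10 granulocyte markers 8 had no count in the 4 libraries, and of 10 red cell and platelet markers 7 had none. Plasma cell markers summed to 299 and 297, then 260 and 250 CPM, nearly all from Xbp1 and Irf4, which activated T cells also express. Stromal markers summed to 182 and 182, then 177 and 205 CPM, nearly all from Pecam1, which T cells also express, with 6 of 12 at 0, and the 2 CD8 genes to 13.3 and 14.8, then 15.4 and 19.7 CPM.

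Bach2 itself (ENSMUSG00000040270, chromosome 4, 32238804 to 32586108 of GRCm38) was at 24.8 and 28.9 CPM with empty vector and at 130.4 and 157.4 CPM with its vector. It rose by 2.42 on the log2 scale (SE 0.136, adjusted p = 6.59e-07), and without any 1 of the 4 libraries the estimate lay between 2.28 and 2.55. Both Bach2 libraries lay well above both empty vector libraries. Vector and endogenous transcripts are counted together. The gene shares 537 exon bases with the antisense gene Bach2os, whose reads cannot be told apart there because the library kit does not mark strand. Whether reads in those bases were counted is not given.

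With the vector 100 of 11475 genes passed the threshold (0.871% of those tested): 29 rose (0.253%) and 71 fell (0.619%). The falls were larger, with a median log2 fold change of -0.81 against 0.64 for the rises, while the median over all genes was 0.001. Of the 30 genes past the threshold that changed at least 2-fold, 28 fell and 2 rose, Bach2 and Tent5a. Among all genes tested, 291 had an estimate of at least 2-fold in either direction, most of them not past the threshold. The 29 genes that rose all code for proteins, as do 66 of the 71 that fell. In each of the 100 genes the 2 vector groups did not overlap, which was also so for 42.2% of all genes tested. Fewer cells of a kind and less RNA per cell cannot be told apart in these bulk samples, for any fall below.

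How many genes passed changed when 1 of the 4 non-Tfh libraries was left out. Each such fit sets 1 library against 2 and so has less power, by which calls can be lost whatever the library held. Without replicate 1 or 2 of the empty vector cells, 3 and 1 genes rose and 18 and 13 fell. Without replicate 1 of the Bach2 cells 38 rose and 28 fell, so that rises outnumbered falls, and without replicate 2 of the Bach2 cells 3 rose and 38 fell. All 100 genes kept their sign in each of these 4 fits, called reduced fits below, but only 11 passed in every one: Bach2, Tigit, Ifi204, Gpr15, Ahr, B4galnt4, Ttc39c, Cdkn1a, S100a4, Tnfrsf26 and S100a11. Another 39 passed in none of the 4.

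**Figure D1:**
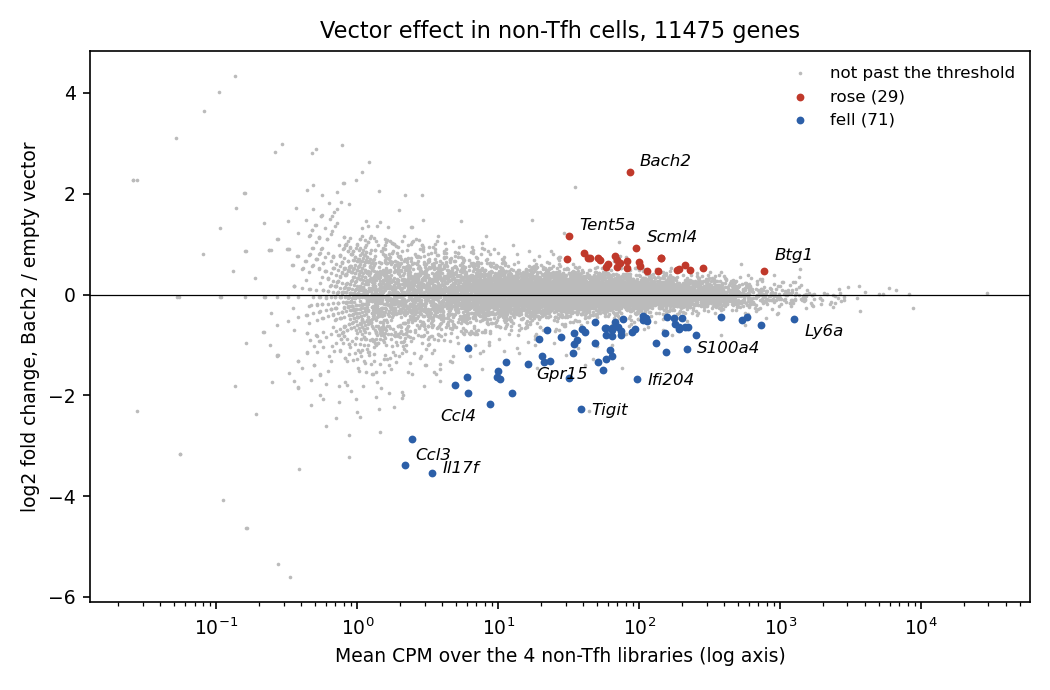
Log2 fold change of Bach2 over empty vector (vertical axis) against mean CPM over the 4 non-Tfh libraries (log axis), 1 point per tested gene, with the 29 genes that rose in red and the 71 that fell in blue. Most coloured points lie below 0, and those beyond a 2-fold change are nearly all falls, from Cdkn1a and S100a4 near -1 to Il17f at -3.54.

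Among inhibitory receptors 3 of 17 tested genes fell and 0 rose, with a list median of -0.17. Over all genes tested, 0.619% fell and 0.253% rose. Tigit (ENSMUSG00000071552, chromosome 16, 43648867 to 43664146), a receptor that competes with CD226 for ligands on antigen-presenting cells, was at 72.7 and 55.2 CPM with empty vector and at 12.9 and 13.6 CPM with Bach2. It fell by 2.27 on the log2 scale (SE 0.146, adjusted p = 4.18e-06), and its highest adjusted p with 1 of the 4 libraries left out was 0.000319. Havcr2, which encodes TIM-3, a receptor of chronically stimulated and type 1 helper cells, was at 46.4 and 50.9 CPM, then 12.97 and 17.7 CPM. Its fall (-1.67, SE 0.231, adjusted p = 0.00468) missed the threshold without either empty vector library (adjusted p = 0.0501 and 0.0805). Lag3, a receptor for MHC class II, was at 42.5 and 53.9 CPM, then 28.0 and 32.0 CPM (-0.68, SE 0.134, adjusted p = 0.0281), and passed in only 1 of the 4 reduced fits (adjusted p up to 0.403, without empty vector replicate 2). Both Bach2 libraries lay below both empty vector libraries in these 3 receptors. The 2 groups did not overlap, in either direction, in 42.2% of all genes tested. The partners of Tigit did not pass: Cd226, the activating receptor for the same ligands, had an estimate of 0.01 (adjusted p = 0.989) and Cd96 of 0.36 (adjusted p = 0.0837). Ctla4 was at 67.5 and 74.2, then 90.2 and 93.8 CPM (0.38, adjusted p = 0.359), and Pdcd1 had an estimate of -0.70 (adjusted p = 0.575).

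Costimulatory receptors had 3 falls and 0 rises among 18 genes, with a list median of -0.16, beside 0.619% falls over all genes tested. Tnfrsf9, which encodes 4-1BB, an activation-induced receptor, was at 71.7 and 56.0 CPM, then 33.5 and 32.2 CPM (-0.96, SE 0.135, adjusted p = 0.00418). Tnfrsf1b, the second receptor for tumour necrosis factor, was at 273 and 263 CPM, then 165 and 179 CPM (-0.64, SE 0.0899, adjusted p = 0.00418). Slamf7, a receptor of cytotoxic and activated lymphocytes, went from 73.4 and 82.8 CPM to 44.4 and 54.4 CPM (-0.66, SE 0.131, adjusted p = 0.0294). All 3 lost the threshold in some reduced fit: Tnfrsf9 without empty vector replicate 1 (adjusted p = 0.071), Tnfrsf1b without either empty vector library (0.0596 and 0.0564 as adjusted p), and Slamf7 in 3 of 4 fits (adjusted p up to 0.376, without empty vector replicate 2). Tnfrsf26, a member of the same receptor family outside the list, was at 98.3 and 91.8 CPM, then 50.8 and 57.4 CPM (-0.81, SE 0.103, adjusted p = 0.00193) and passed in all 4. Icos, a costimulator needed for follicular help, had the most counts of the list at 937 and 914 CPM, then 692 and 641 CPM, and just missed the threshold (-0.47, adjusted p = 0.0517). Cd40lg (-0.31, adjusted p = 0.31) and Cd28 (-0.20, adjusted p = 0.345) did not pass.

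**Figure D2:**
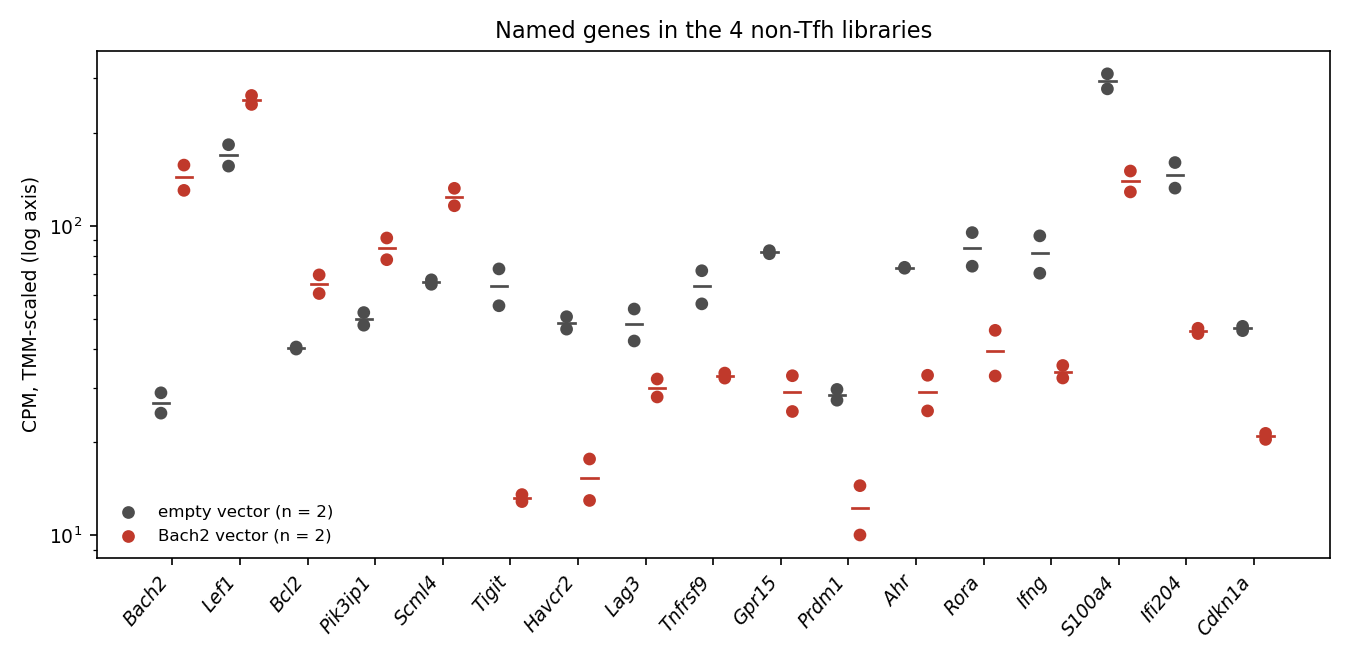
CPM (log axis) of 17 genes in the 4 non-Tfh libraries, with grey points for the 2 empty vector libraries, red points for the 2 Bach2 libraries and short bars for the group means. In each gene the groups do not overlap, as in 42.2% of all genes tested. Bach2, Lef1, Bcl2, Pik3ip1 and Scml4 are higher with the vector, and the other 12, from Tigit to Cdkn1a, are lower.

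Genes of the Th17 type had the lowest median of the 33 gene lists. All 11 tested genes had a negative estimate, with a median of -1.33, and 4 fell. Over all 11475 genes tested, 5711 estimates were negative and 0.619% fell. Il17f and Il22 passed the count filter only through the empty vector non-Tfh libraries. Il22 was at 3.38 and 1.33 CPM there and at most 0.763 CPM in any other library. Their signs were thus fixed by the filter, and Il17a, Il17rc and Ccl20 were not tested. Ahr (ENSMUSG00000019256, chromosome 12, 35497974 to 35535038), the aryl hydrocarbon receptor, a ligand-sensing factor of Th17 and other barrier T cells, was at 73.5 and 73.0 CPM, then 32.9 and 25.3 CPM. It fell by 1.33 on the log2 scale (SE 0.146, adjusted p = 0.000479). Rora, a nuclear receptor of Th17 cells, went from 95.2 and 74.2 CPM to 46.0 and 32.8 CPM (-1.11, SE 0.206, adjusted p = 0.0436). The cytokine gene Il17f was low, at 7.08 and 5.45 CPM, then 0.436 and 0.616 CPM (4 and 6 counts in the Bach2 libraries). Its fall was the largest among genes past the threshold (-3.54, SE 0.603, adjusted p = 0.0135). Il17re, a receptor chain for IL-17C, went from 10.1 and 9.34 CPM to 2.73 and 2.26 CPM (-1.96, SE 0.33, adjusted p = 0.0128). Of the 4, Ahr passed whichever library was left out. Rora passed in 1 reduced fit and Il17f and Il17re in none, with adjusted p up to 0.241 for Rora (without empty vector replicate 1).

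The receptor Gpr15 (ENSMUSG00000047293, chromosome 16, 58717433 to 58719070), which guides T cells to the large intestine, was the single call among 36 homing and adhesion genes (list median -0.14). It was at 83.2 and 81.4 CPM with empty vector and at 32.8 and 25.1 CPM with Bach2 (-1.51, SE 0.162, adjusted p = 0.000479). The gene shares 204 exon bases with Cpox on the opposite strand, whose reads cannot be told apart there. Fut7, an enzyme that makes selectin ligands, also fell (112 and 118 CPM, then 71.1 and 72.7 CPM, -0.68, adjusted p = 0.0314), but passed in none of the reduced fits. Other homing genes of the panel did not pass: Ccr7, a lymph node entry receptor, had an estimate of 0.61 (adjusted p = 0.381), S1pr1 of 0.10 (adjusted p = 0.901) and Cxcr3, a type 1 receptor, of -0.20 (adjusted p = 0.62).

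Effector cytokine, chemokine and granule genes had 3 falls among 21, 0 rises and a median of -0.34, beside 0.619% falls over all genes tested. Ifng, the type 1 cytokine, was at 93.0 and 70.4 CPM, then 32.3 and 35.4 CPM (-1.27, SE 0.198, adjusted p = 0.0128). Ccl3 and Ccl4, neighbouring inflammatory chemokine genes, were low. Ccl3 passed the count filter only through the empty vector non-Tfh libraries, so it could enter only as a fall. Ccl3 went from 3.81 and 4.11 CPM to 0.218 and 0.513 CPM (-3.38, adjusted p = 0.0158). Ccl4 went from 12.6 and 16.01 CPM to 2.40 and 3.90 CPM (-2.17, adjusted p = 0.0154). Ifng passed without empty vector replicate 2 and Ccl4 without Bach2 replicate 2, each in 1 of 4 reduced fits, and Ccl3 in 0, with adjusted p up to 0.118, 0.224 and 0.16. Gzmb, a cytotoxic granule protease, was at 105 and 116, then 33.0 and 47.4 CPM, and Il21, the cytokine of B cell help, at 62.3 and 55.9, then 28.8 and 16.5 CPM. In both genes the groups did not overlap, as in 42.2% of all genes tested, and neither passed (-1.46, adjusted p = 0.061, and -1.39, adjusted p = 0.086). Summed NK and innate lymphoid markers were also lower with Bach2 (50.1 and 40.9 CPM, then 32.8 and 33.8 CPM), which came from Il1rl1, a gene that some helper and regulatory T cells also express, at 26.9 and 28.5, then 7.85 and 12.3 CPM. The NK marker Klrb1c was not lower, at 16.9 and 9.0, then 17.4 and 16.6 CPM, nor was Eomes, at 5.12 and 2.67, then 6.87 and 3.39 CPM, and the defining genes Ncr1, Klra8 and Klra4 had no count in the 4 libraries. The part of that sum in these results was not tested.

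**Figure D3:**
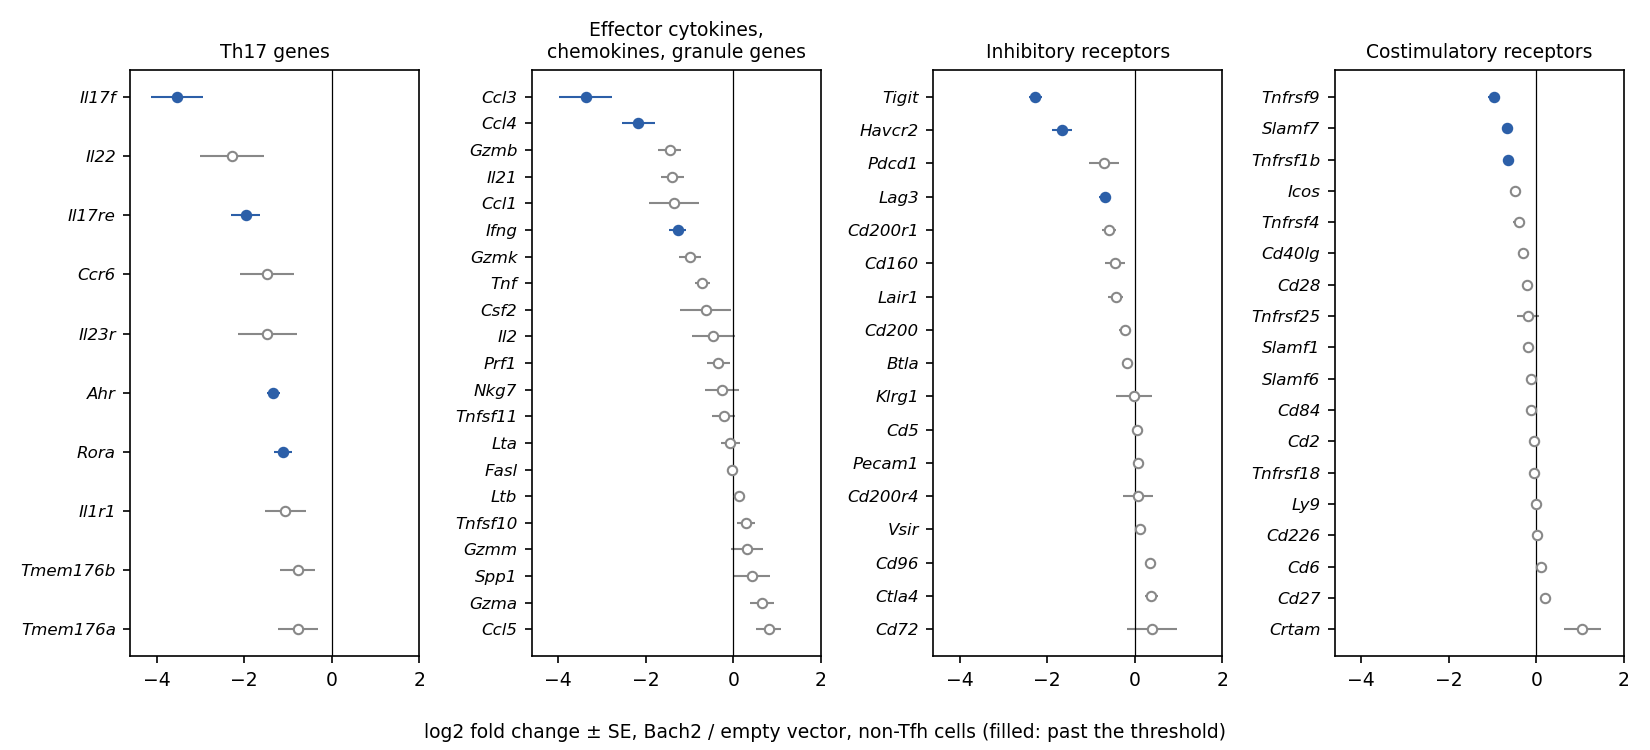
Log2 fold change with its SE for the tested genes (1 Th17 gene left out) of the 4 lists with most falls other than interferon-stimulated genes, with filled points for genes past the threshold. All Th17 genes shown lie left of 0, while the other 3 lists spread to both sides of 0 and hold 3 filled points each. Il17f, Il22 and Ccl3 passed the count filter only through the empty vector non-Tfh libraries.

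Of 14 effector transcription factors 1 fell, Prdm1, and the list median was -0.04. Prdm1 (chromosome 10, 44437177 to 44528501) encodes Blimp-1, which represses Bcl6 and is known to be repressed by Bach2 in B cells. It was at 29.6 and 27.4 CPM, then 10.03 and 14.5 CPM (-1.21, SE 0.228, adjusted p = 0.0213), and passed only without Bach2 replicate 2 among the reduced fits (adjusted p up to 0.219, without empty vector replicate 1). Tbx21, the type 1 master factor T-bet, was at 210 and 237, then 195 and 216 CPM (-0.12, adjusted p = 0.90), and Id2 had an estimate of -0.19 (adjusted p = 0.887). The receptor chain Il12rb1 fell too (68.3 and 71.0 CPM, then 40.5 and 47.0 CPM, -0.67, SE 0.118, adjusted p = 0.0154), the 1 call among 11 type 1 cytokine receptors, and was lost in 3 of 4 reduced fits (adjusted p up to 0.18).

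Among genes for the partner proteins of Bach2 there were few calls. Of 7 Bach, small Maf and related factors, Bach2 rose and Mafg fell (23.8 and 26.7 CPM, then 12.97 and 14.5 CPM, -0.88, SE 0.16, adjusted p = 0.0195). Mafg encodes a small Maf protein, a dimer partner of Bach2. It overlaps 124 exon bases of Sirt7 on the same strand, and it passed in none of the 4 reduced fits (adjusted p up to 0.23). Among 11 AP-1, BATF and IRF genes, which compete for or share such elements, 1 fell, Irf8 (57.3 and 58.4 CPM, then 41.2 and 38.5 CPM, -0.54, adjusted p = 0.0435), also in no reduced fit. Batf (-0.08, adjusted p = 0.859) and Irf4 (-0.07) did not pass. Maf, a large Maf factor of Tfh and cytokine-producing cells, fell from 119 and 147 CPM to 87.1 and 98.9 CPM (-0.52, adjusted p = 0.0432; adjusted p = 0.523 without empty vector replicate 2).

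Upstream sequence was inspected for genes that fell, since Bach2 with small Maf proteins and AP-1 share a core element. The core TGANTCA, and GCTGANTCA, which contains it and adds bases that Maf proteins prefer, were searched on both strands from 250 bases before to 50 after each RefSeq start (GRCm38.p6). A window was at hand for 53 of the 71 genes that fell (74.6%) and 19 of the 29 that rose. Fewer than 80% of the falls had one, so a comparison of shares is void and the counts below only describe these windows. The core was in 12 of those 53 genes, and the longer form in 3. Of the 19 that rose, 1 held the core and 0 the longer form. Of the 8842 tested genes with a window, 5.68% held the core and 1.15% the longer form. Over all 27025 genes with a window, tested or not, 8.97% held the core and 1.37% the longer form. A few of the upstream matches are printed below because they belong to genes whose values are given here, 5′ to 3′ on the strand of the gene, with the core in capitals. A match is not a measured binding site.
Havcr2 (GRCm38.p6, chr11:46454704-46454764, plus strand): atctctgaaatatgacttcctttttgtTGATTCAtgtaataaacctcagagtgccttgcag
Gpr15 (GRCm38.p6, chr16:58719038-58719098, minus strand): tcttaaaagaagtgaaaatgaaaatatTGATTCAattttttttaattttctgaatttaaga
Prdm1 (GRCm38.p6, chr10:44458763-44458823, minus strand): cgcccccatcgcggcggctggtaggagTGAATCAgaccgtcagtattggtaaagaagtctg
Tnfrsf9 (GRCm38.p6, chr4:150927957-150927998, plus strand): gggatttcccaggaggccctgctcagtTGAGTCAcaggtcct
S100a11 (GRCm38.p6, chr3:93520431-93520491, plus strand): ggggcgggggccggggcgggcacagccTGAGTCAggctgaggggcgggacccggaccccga
Prdx1 (GRCm38.p6, chr4:116685441-116685501, plus strand): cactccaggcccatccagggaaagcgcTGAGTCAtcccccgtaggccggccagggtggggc
The match ended 194 bases before the RefSeq start of its window in Havcr2, 193 in Gpr15, 42 in Prdm1 and 9 in Tnfrsf9. That start lies far inside the annotated span of the gene in Prdm1 and Tnfrsf9, and a short way inside it in Gpr15, so these 3 matches are upstream of an internal start and not of the first annotated base. The stretch printed for Prdx1 holds the longer form, as GC stands before the core.

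Calcium-binding S100 genes and interferon-related genes fell in small numbers. S100a4 (chromosome 3, 90603771 to 90606045), a cytoskeletal regulator of effector and memory T cells, was at 310.5 and 278 CPM, then 129 and 151 CPM (-1.07, SE 0.0955, adjusted p = 8.98e-05). S100a11 was at 293 and 353 CPM, then 177 and 191 CPM (-0.81, SE 0.0998, adjusted p = 0.00158). Both passed in all reduced fits, and they were the 2 calls in 18 S100 and annexin genes (median -0.28). Of all genes tested, 0.871% were called. Ifi204, an interferon-induced DNA sensor gene with close copies, was at 133 and 160.4 CPM, then 44.9 and 46.7 CPM (-1.68, SE 0.171, adjusted p = 0.00158). It was the 1 call among 10 members of its p200 family, and the 3 members with most counts, Ifi209, Ifi206 and Ifi203, had estimates of 0.23, 0.07 and 0.02. Among 40 interferon-stimulated genes 37 had negative estimates (median -0.20) and 4 fell: Oasl2 (-0.90, adjusted p = 0.0206), Gbp3 (-0.80, adjusted p = 0.0373), Oas3 (-0.64, adjusted p = 0.0135) and Ly6a (1488 and 1429 CPM, then 1006 and 1073 CPM, -0.49, adjusted p = 0.00951). Of all 11475 genes tested, 5711 had negative estimates and 0.619% fell. Gbp3 passed in none of the 4 reduced fits and the other 3 in 1 each (adjusted p up to 0.214 for Oasl2). Ifitm1, an interferon-induced membrane protein gene outside that list, fell from 206 and 224 CPM to 84.9 and 109 CPM (-1.15, adjusted p = 0.0206).

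**Figure D4:**
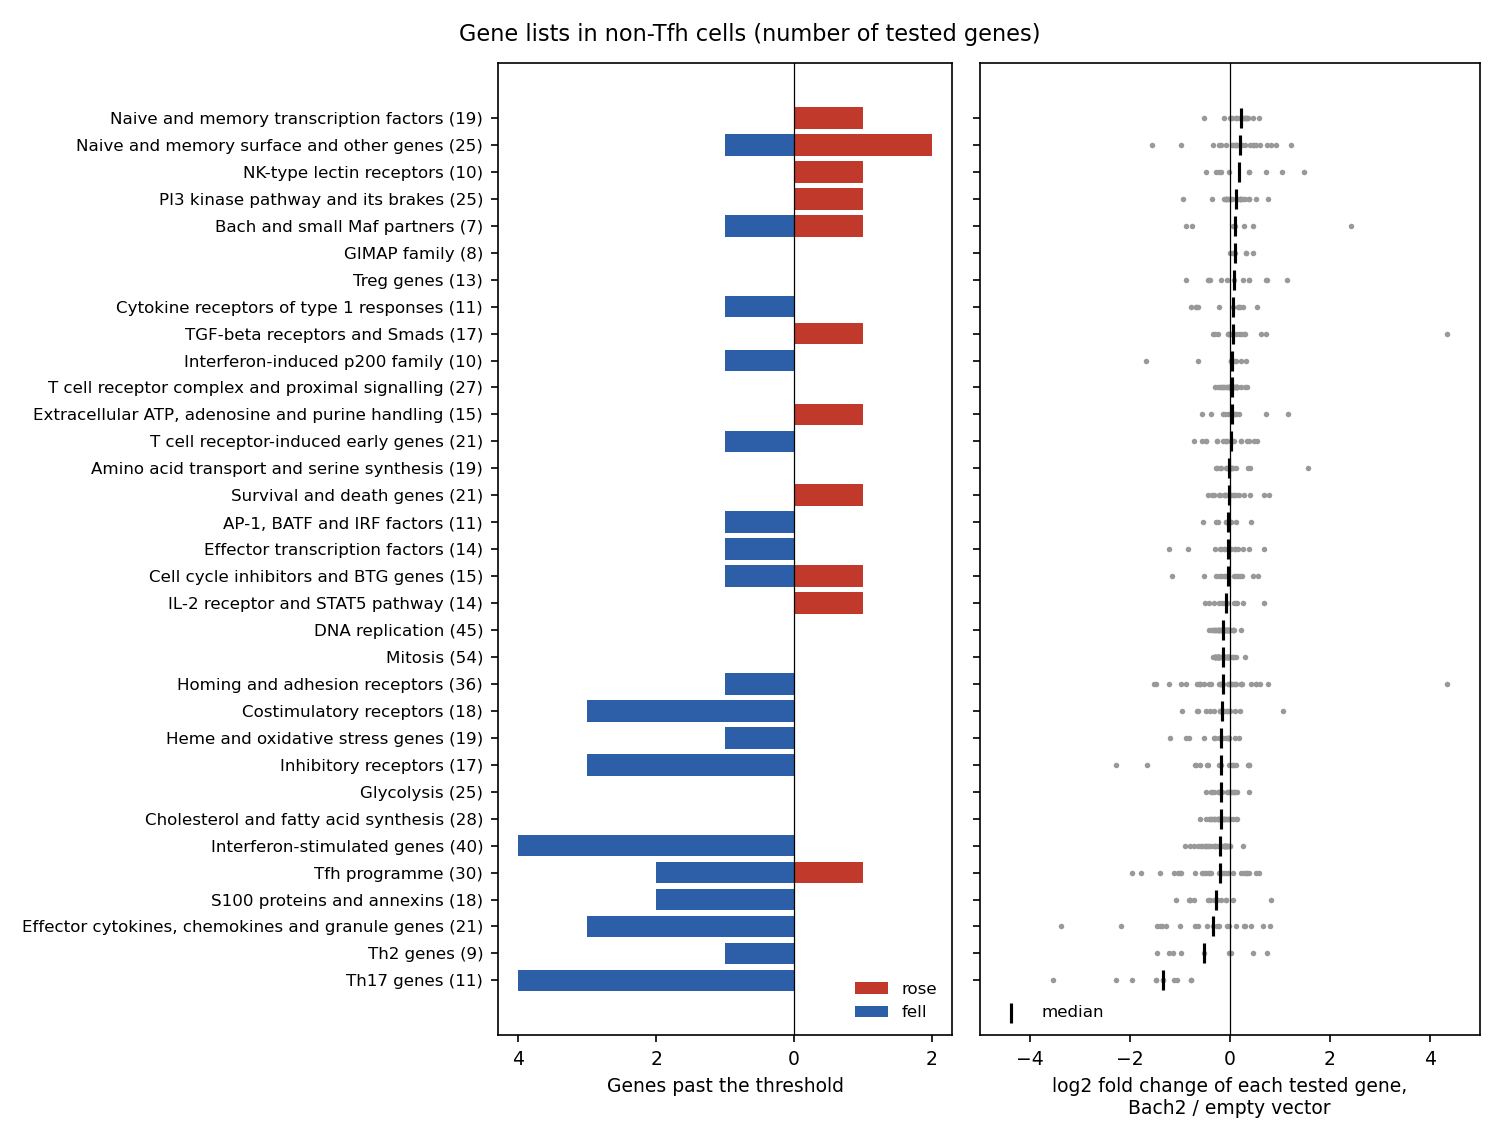
Left, the number of genes past the threshold in each of 33 gene lists, falls in blue and rises in red; right, the log2 fold change of each tested gene (grey) and the list median (black bar). The Th17 list has the lowest median at -1.33 and 4 falls, interferon-stimulated genes also have 4 falls at a median of -0.20, and the 2 naive and memory lists lie at the top with medians of 0.23 and 0.21.

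The 29 rises were smaller than the falls by median. Lef1 (chromosome 3, 131110471 to 131224356), a factor of naive and memory T cells, was at 183 and 156 CPM, then 264 and 247 CPM (0.59, SE 0.0916, adjusted p = 0.00747; adjusted p = 0.16 without empty vector replicate 2). It was the 1 call in 19 naive and memory factors, of which 17 had positive estimates (median 0.23), beside 5757 of all 11475 genes tested. Its relative Tcf7 was at 1284 and 1105, then 1482 and 1554 CPM and did not pass (0.35, adjusted p = 0.122), nor did Foxo1 (0.20, adjusted p = 0.36), Klf2 (0.13, adjusted p = 0.934) or Id3 (0.33, adjusted p = 0.17). Of 25 further naive and memory genes, 2 rose, Scml4 and Tdrp, and 1 fell, Cd7, a surface protein of T cells (168 and 180.1 CPM, then 93.2 and 85.0 CPM, -0.97, SE 0.124, adjusted p = 0.00194; adjusted p = 0.0702 without empty vector replicate 2). Scml4, a Polycomb-related gene, went from 67.0 and 64.8 CPM to 116 and 132 CPM (0.92, SE 0.171, adjusted p = 0.03) and passed in no reduced fit (adjusted p up to 0.341).

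Other rises included the following genes. Bcl2, the survival factor, was at 40.6 and 40.0 CPM, then 60.5 and 69.5 CPM (0.69, SE 0.138, adjusted p = 0.0312), the 1 call among 21 survival and death genes. Pik3ip1, which damps PI3 kinase, was at 52.5 and 47.8 CPM, then 77.8 and 91.5 CPM (0.76, SE 0.127, adjusted p = 0.0128). Smad7, an inhibitor of TGF-beta signalling, and Klrd1, which encodes the lectin-like receptor CD94, rose by 0.73 and 0.72 (adjusted p = 0.0472 and 0.0436). Btg1, a brake on proliferation, went from 661 and 620 CPM to 872 and 907 CPM (0.47, SE 0.0766, adjusted p = 0.00951). The chromatin genes Chd3 and Kmt2a rose by 0.62 (adjusted p = 0.0206) and 0.55 (adjusted p = 0.0306), and Rxrb, a nuclear receptor partner, by 0.72 (adjusted p = 0.0223). Bcl2, Pik3ip1, Klrd1 and Btg1 passed only without Bach2 replicate 1 among the 4 reduced fits, with adjusted p up to 0.526 for Klrd1. Apart from Bach2, no rise passed in all 4.

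Xdh, which degrades purines, was at 107 and 106 CPM, then 160.5 and 193 CPM (0.73, SE 0.102, adjusted p = 0.00413), the 1 call in 15 genes of extracellular ATP, adenosine and purine handling. Ms4a4c, a membrane protein gene with close copies, was at 103 and 113 CPM, then 165 and 190 CPM (0.72, SE 0.11, adjusted p = 0.00741). H2-Q6, a nonclassical class I gene whose close copies make its count uncertain, rose by 0.53 (adjusted p = 0.0154). Tent5a, which lengthens RNA tails, was the largest rise past the threshold after Bach2 (17.4 and 21.6 CPM, then 37.3 and 49.9 CPM, 1.16, SE 0.239, adjusted p = 0.0472). Mfng, which modifies Notch receptors, rose by 0.53 (adjusted p = 0.0388), and Nod1, a sensor of bacterial cell wall fragments, by 0.57 (adjusted p = 0.0278). Xdh lost the threshold without either empty vector library (adjusted p = 0.0574 and 0.0805), Ms4a4c, H2-Q6, Tent5a and Nod1 passed in 1 of the 4 reduced fits each, and Mfng in 0.

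Several falls lay outside the lists fixed for helper T cells. B4galnt4, a sugar transferase gene, was at 32.2 and 33.9 CPM, then 11.8 and 14.8 CPM (-1.31, SE 0.143, adjusted p = 0.000479). Ttc39c, whose product is little characterized, was at 86.2 and 91.9 CPM, then 40.9 and 35.6 CPM (-1.22, SE 0.128, adjusted p = 0.000479). Both passed in all 4 reduced fits. Of the 71 falls 5 were noncoding, among them Gm14005, the locus RefSeq lists as Morrbid, a long RNA known to limit Bcl2l11 in myeloid cells, at 13.1 and 16.8 CPM, then 4.58 and 5.03 CPM (-1.63, adjusted p = 0.0113). AW112010, annotated as a long noncoding RNA, was at 907 and 850 CPM, then 565 and 593 CPM (-0.60, SE 0.0868, adjusted p = 0.00485). Gm14005 was lost in every reduced fit (adjusted p up to 0.18), and AW112010 only without empty vector replicate 1.

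The noncoding transcript 6430562O15Rik had the third largest fall among genes past the threshold, from 4.79 and 3.89 CPM to 0.218 and 0.924 CPM (-2.87, SE 0.461, adjusted p = 0.00951). It shares exon bases with Mrps27 on the opposite strand and passed in only 1 reduced fit. Matn2, a matrix adaptor also counted in the Tfh programme list, was at 15.2 and 25.01 CPM, then 3.27 and 6.98 CPM (-1.96, SE 0.334, adjusted p = 0.0154). Plxdc1, a plexin-domain receptor gene, was at 13.9 and 17.3 CPM, then 4.03 and 5.65 CPM (-1.69, SE 0.263, adjusted p = 0.00776). Adam8, a membrane protease gene, went from 27.5 and 33.4 CPM to 7.85 and 16.1 CPM (-1.34, SE 0.269, adjusted p = 0.0359), and Jaml, an adhesion molecule of T cells, from 80.7 and 83.0 CPM to 48.0 and 44.5 CPM (-0.83, adjusted p = 0.0472). Tmem154 fell by 0.59 (adjusted p = 0.00713) and Cldnd1 by 0.69 (adjusted p = 0.00583). Matn2 and Plxdc1 lost the threshold without empty vector replicate 2 or Bach2 replicate 1 (adjusted p = 0.256 and 0.0698 for Matn2), Adam8, Tmem154 and Cldnd1 passed in 1 reduced fit each, and Jaml in 0.

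Errfi1, a feedback inhibitor of the EGF receptor family, was at 20.9 and 26.1 CPM, then 7.96 and 10.2 CPM (-1.37, SE 0.212, adjusted p = 0.00747). Map2k3, a kinase upstream of p38, was at 190.5 and 193 CPM, then 105 and 122 CPM (-0.75, SE 0.11, adjusted p = 0.00561). The stress-linked genes Atf6 and Plk3 fell by 0.70 (adjusted p = 0.00707) and 0.64 (adjusted p = 0.00784). Of 19 heme and oxidative stress genes, a class in which Bach1 and Nrf2 targets are found, 1 fell, the peroxidase gene Prdx1 (609 and 658 CPM, then 442 and 445 CPM, -0.51, SE 0.0829, adjusted p = 0.00951). Prdx1 passed in none of the reduced fits, Atf6 and Plk3 in 1 each, and Errfi1 and Map2k3 in 2 each. Slc39a4, a zinc importer gene, fell by 0.98 (adjusted p = 0.0154), and Trpm6, which encodes a magnesium channel, by 1.52 (adjusted p = 0.0162), and both passed in 1. The smallest falls were those of Acot7, an acyl-CoA thioesterase gene (-0.43, adjusted p = 0.041), and the noncoding AI662270 (-0.44, adjusted p = 0.0238). Small falls in well expressed genes included Rab8b, which encodes a GTPase of vesicle transport (444 and 430.5 CPM, then 318 and 322 CPM, adjusted p = 0.0139), and Actr2, a subunit gene of the Arp2/3 complex (-0.45, adjusted p = 0.0457).

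Cell cycle genes gave no call in non-Tfh cells. Of 45 DNA replication and 54 mitosis genes 0 rose and 0 fell by edgeR or DESeq2 (4 and 5 had an unadjusted p under 0.05 in edgeR), with medians of -0.14 in both lists, although 39 and 49 estimates were negative. Over all 11475 genes tested, 5711 were negative. Mki67, the proliferation marker, had an estimate of -0.04. The cell cycle inhibitor Cdkn1a, or p21 (chromosome 17, 29090976 to 29100727), fell from 47.4 and 45.9 CPM to 21.4 and 20.4 CPM (-1.16, SE 0.148, adjusted p = 0.00194) and passed in all 4 reduced fits. It was, with Btg1, one of 2 calls in 15 inhibitors and BTG genes. Glycolysis (25 genes, median -0.17), cholesterol and fatty acid synthesis (28 genes, median -0.18), the receptor complex with its proximal signalling (27 genes, median 0.04), Treg genes (13, median 0.09), amino acid transport (19, median -0.02) and the GIMAP family (8, median 0.10) also had 0 calls by edgeR. DESeq2 called 1 glycolysis gene lower and 2 GIMAP genes higher and none in the other 4. In the order given, the unadjusted p of edgeR was under 0.05 for 8, 7, 6, 7, 1 and 3 genes. Of these, 1, 0, 3, 3, 1 and 3 were higher with Bach2 and the rest lower. Among all 11475 genes tested, 1186 had such a p. By share, the DNA replication, mitosis and amino acid transport lists lay below this. The glycolysis, cholesterol and fatty acid synthesis, receptor complex, Treg and GIMAP lists lay above it.

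The same vector in Tfh cells, measured in 4 other libraries, changed 196 of the 11475 genes (1.71%). Of the 100 genes called in non-Tfh cells, 92 had the same sign in Tfh cells, against 65.5% of all genes tested. All 29 rises and 63 of the 71 falls did so. Past the threshold in both cell types were 28 genes, each in 1 direction, which is 28.0% of the calls in non-Tfh and 14.3% of those in Tfh cells. Cdkn1a (-1.18 in Tfh cells), S100a4 (-1.04), Ifi204 (-1.57) and Lef1 (0.53) had similar estimates in both. Bach2 itself rose by 3.35 in Tfh cells, from a group mean of 12.6 to 127.7 CPM. In non-Tfh cells it rose by 2.42, from a group mean of 26.9 to 143.9 CPM. The difference, non-Tfh minus Tfh, was -0.925 (unadjusted p = 0.000392, adjusted p = 0.409 by edgeR). What part this difference had in the comparisons between cell types was not tested.

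No gene passed the threshold when the vector effect in non-Tfh cells was tested against that in Tfh cells (0% of 11475 by edgeR, smallest adjusted p = 0.131). At an unadjusted p under 0.05 there were 539 of the 11475 genes, 288 above 0 and 251 below. That is under the share of 0.05 which such a cut passes when no gene differs. This count does not show that no gene differs. DESeq2 called 4 genes. The smallest p was that of Tigit, with a difference (non-Tfh minus Tfh) of -1.27 on the log2 scale (adjusted p = 0.131). Its level was higher in Tfh cells, where it was at 403 and 351 CPM, then 198 and 179 CPM. Lag3 had an estimate of 0.40 in Tfh cells (adjusted p = 0.122) and a difference of -1.08 between cell types (adjusted p = 0.142). Tnfrsf26 had an estimate of 0.01 in Tfh cells, and B4galnt4 of -0.14. These 4 genes were the ones DESeq2 called.

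In the cell cycle lists the values differed between the cell types. In Tfh cells 20 of 45 DNA replication and 27 of 54 mitosis genes fell, with medians of -0.56 and -0.61. The difference in vector effect, non-Tfh minus Tfh, had a median of 0.44 in each list and was above 0 in 43 of 45 and 52 of 54 genes, against a median of 0.005 over all genes. No single gene of either list passed the adjusted threshold for that difference, and 27 and 30 had an unadjusted p under 0.05, all above 0.

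**Figure D5:**
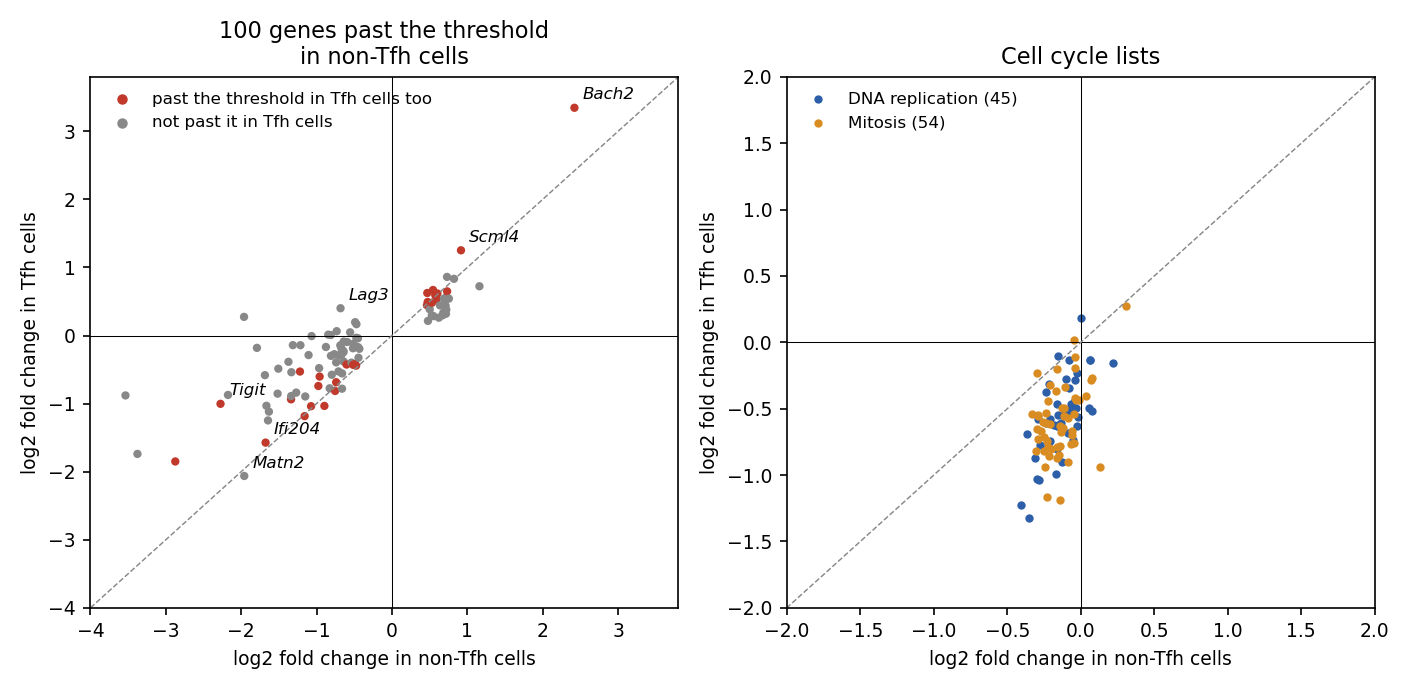
Log2 fold change of Bach2 over empty vector in non-Tfh cells (horizontal) and in Tfh cells (vertical), for the 100 genes called in non-Tfh cells (left; red, past the threshold in Tfh cells too) and for 2 cell cycle lists (right), with the dashed line at equal effects. Most called genes lie in the same-sign quadrants, and the cell cycle genes lie below the dashed line, with medians near -0.14 on the horizontal and near -0.6 on the vertical axis.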

How the data were processed

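The libraries were made with the Smart-Seq v4 and Nextera XT kits and sequenced in pairs on a NextSeq500, per the labels' protocols; the kits do not mark strand. The deposited values are raw counts, whole numbers for each Ensembl gene. The authors used TopHat2, Bowtie2 and featureCounts on GRCm38/mm10, per the submitters' processing notes; tool versions, the gene annotation used and how reads with several matches were treated are not given in the sources used, so genes with close copies are uncertain. Symbols and positions came from GENCODE M21 (37693 of 39179 IDs matched; the rest held at most 0.205% of counts). No row lacked a gene.

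The 8 libraries were fitted together with edgeR 4.0.16 in R 4.3.3: TMM scaling, filterByExpr (minimum count 10, minimum total 15), 1 coefficient per group, 4 residual degrees of freedom, robust quasi-likelihood test and Benjamini-Hochberg adjustment, threshold 0.05. Fitting all groups shares 1 estimate of the spread (biological coefficient of variation 9.89%). DESeq2 1.42.0 was an alternative. Replicates of a group were not copies (chi-square over its degrees of freedom, 5.67 to 8.81). In each fit with 1 library left out, the lone library is assumed to vary like the other groups.

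Members and lists were chosen with earlier results of these data known, so lists are described by counts and medians without a test. Named were genes past the threshold, a panel of 40 T cell genes, and up to 3 genes with most counts in each list. Promoter windows came from RefSeq (GRCm38.p6). Some genes of the panel are not reported here.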

Additional observations from a re-analysis of the deposited data

How the results depend on the processing

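Every estimate of the 100 genes kept its sign when 1 of the 4 non-Tfh libraries was left out. Over fits without 1 of the 8 libraries, 1 to 38 genes rose, 13 to 89 fell, and 0 to 1 differed between the cell types; Bach2 ran from 2.28 to 2.55 and always passed. With no filter on low counts 143 genes rose, 189 fell and 37 differed between cell types. The DESeq2 Wald test gave 56 rises, 102 falls and 4 differences. With a replicate block 72 genes rose, 135 fell and 3 differed. All 100 genes called without the block passed with it. The labels do not say what a replicate number stands for, and the deviations of same-numbered libraries correlated at -0.00412 to 0.24 over the 6 pairs of groups (over 0.1 in 4, and 0.129 between the non-Tfh groups), so whether the numbers pair the libraries is not settled. DESeq2 size factors, a minimum count of 30, no robust estimation and a fit of the non-Tfh libraries alone kept both counts of calls within 1.5 times. The causes of the larger counts were not tested. Depth limits Il17f, Ccl3 and other genes with under 10 counts in a library. With 2 libraries in each group, a gene that missed the threshold is not shown to be unchanged.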

Other observations

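Il10, which encodes an inhibitory cytokine, had too few counts to be tested: 7 and 2 counts with empty vector and 0 and 0 with Bach2 in non-Tfh cells. Pooled, that is 9 counts against 0, and at least 3.11-fold lower with Bach2 when set against 3 counts over the group. That bound rests on replicate 1, which held 7 of the 9 counts, since the 2 counts of replicate 2 alone are under 3 and give none, and it leaves out the counting error of the 9.

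Cd74, an antigen presentation gene of B and myeloid cells, was at 46.9 and 18.3 CPM with empty vector and at 45.7 and 14.2 CPM with Bach2, so that it differed by replicate number and little by vector.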
